A study of Mus musculus with 10 samples.

Results

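Mitochondrial ribosomal protein genes are described here in mouse calf muscle, in 5 samples labelled HLI and 5 labelled Sham. The members are the genes whose symbol is Mrpl or Mrps followed by a number and an optional letter, with no pseudogene symbols and with at least 50 estimated counts summed over the 10 samples. This rule took 78 of the 21956 listed genes, 49 with the large subunit symbol Mrpl and 29 with the small subunit symbol Mrps. Their summed counts ran from 2209 to 27486, far above the minimum, and all 78 passed the filter on low counts that left 13404 genes for testing.

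The HLI samples were gastrocnemius muscle, a large muscle of the calf, from mice of genotype WT treated as HLI, and the Sham samples were the same muscle from WT mice with a Sham treatment. HLI presumably stands for hindlimb ischaemia, but the abbreviation is not explained, and strain, age, sex and time after treatment go unstated in the sources used here. Whether each sample is a different animal is also unstated, and p-values therefore cover the spread of these samples alone, part of which may be technical. Poly(A) RNA was sequenced, and total estimated counts per sample ran from 16556385 to 22136299. The muscle label held in every library, where the 12 fast fibre markers summed to between 47911 and 138667 CPM in HLI and between 113993 and 156609 CPM in Sham (CPM, counts per 1000000 counts of the library after TMM scaling).

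The mitochondrial ribosome translates the few mRNAs of the mitochondrial genome, all of which encode subunits of the respiratory complexes and ATP synthase. Its rRNAs come from the mitochondrial genome, whereas its proteins are encoded in the nucleus, made in the cytosol and imported. Some of these proteins descend from bacterial ribosomal proteins and others were added during the evolution of mitochondria. Skeletal muscle, above all its oxidative fibres, is rich in mitochondria.

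Most members had slightly lower values in HLI than in Sham, and no single member passed the test. Of 78 members, 74 had a log2 fold change of HLI over Sham below 0, where 46.2% of all genes tested did. The median log2 fold change was -0.18, equal to 0.881-fold, against 0.03 over all genes tested. The member with the lowest value was Mrpl14 at -0.43 (SE 0.20), and the member with the highest was Mrpl1 at 0.06 (SE 0.14). At a Benjamini-Hochberg adjusted p under 0.05 in edgeR's quasi-likelihood test, 0 of 78 members were called, and 0% of all genes were called. DESeq2 also called 0 members, among 42 genes called in all. At an unadjusted edgeR p under 0.05, 12 members were lower, or 15.4%, against 6.15% of all genes tested. In the other direction 0 members passed that limit, against 10.7% of all genes tested. The direction depended on the scaling. On the deposited TPM without further scaling the median of all genes was 0.19, the median of the members 0.01, and 34 of 78 members lay below 0, where 24.2% of all genes did. Set against that all-gene median, the members stood at -0.17, and 75 of 78 lay below the median of all genes, as did 77 of 78 in the TMM-scaled counts, where their median relative to all genes was -0.21.

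**Figure D1:**
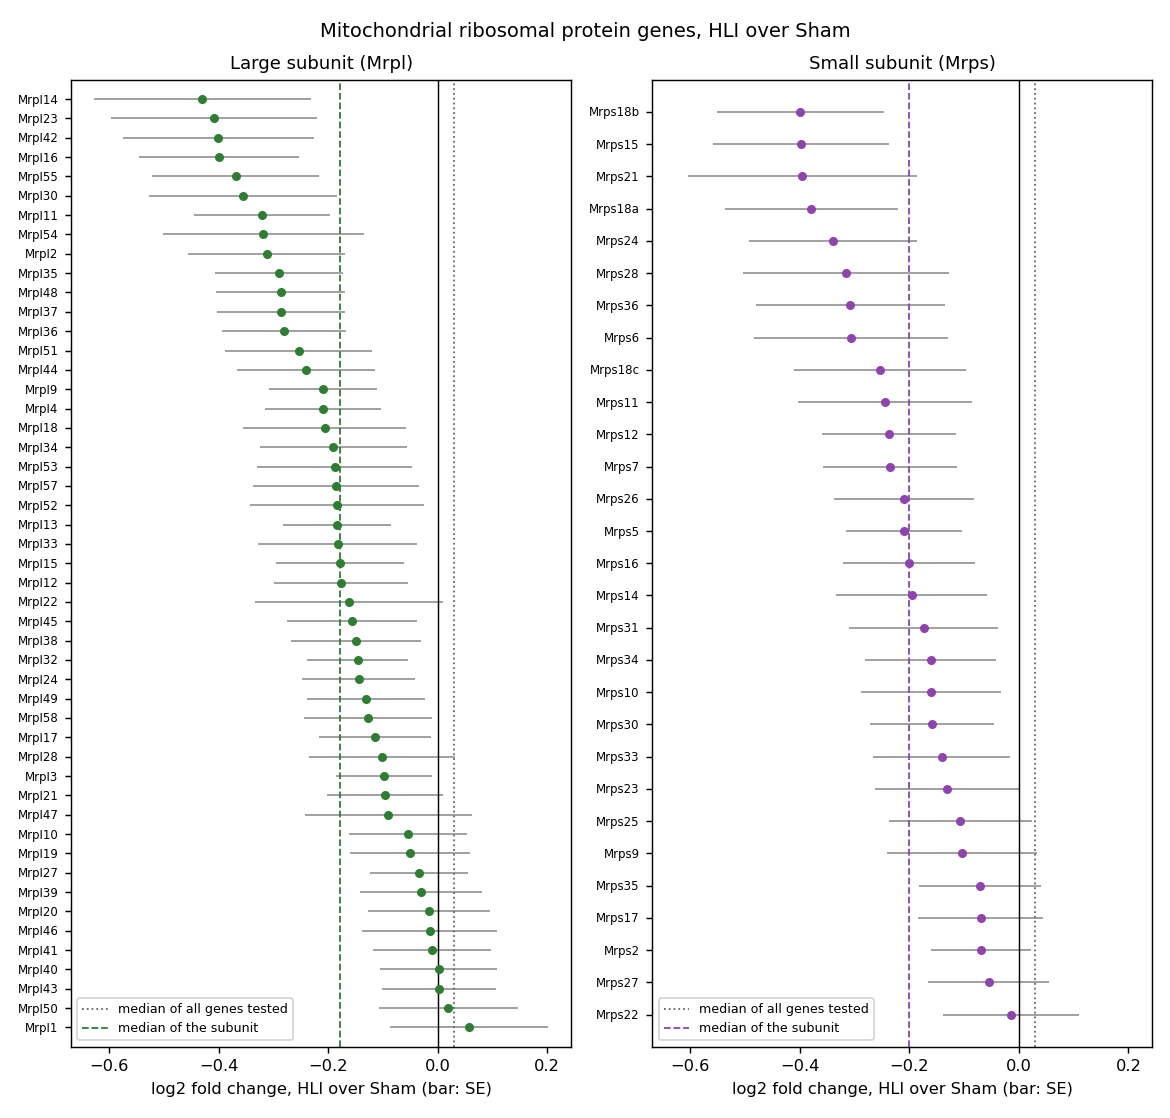
Log2 fold change of HLI over Sham for each of the 49 large subunit and 29 small subunit genes, sorted by value. Bars are 1 SE, derived from edgeR's F statistic. The dashed lines mark the subunit medians of -0.18 and -0.20, the dotted line the median of all genes tested of 0.03, and most points lie left of 0.

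The subunits stood at similar medians, and their difference was not tested. The 49 large subunit genes had a median log2 fold change of -0.18 with 45 below 0, and the 29 small subunit genes a median of -0.20 with all 29 below 0. Structures of the mammalian mitochondrial ribosome place the products of Mrps18a and Mrps30 in the large subunit, and counting both there left the medians at -0.18 and -0.20. The summed TPM of large over small subunit genes was 2.21 ± 0.08 in HLI and 2.18 ± 0.05 in Sham (SD, n = 5 each), so the groups overlapped. The 45 genes with a bacterial homologue had a median of -0.20 with 44 below 0, and the 32 genes without one, Mrps36 left out, a median of -0.16 with 29 below 0. The middle 80% of members lay between -0.37 and -0.03, whereas the middle 80% of all genes tested lay between -0.34 and 0.58.

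The shift was not shared evenly by the HLI libraries. The median of the 78 members, as log2 CPM relative to each gene's mean over the 10 libraries, was -0.12 in HLI replicate 1, 0.02 in HLI replicate 2, -0.37 in HLI replicate 3, 0.08 in HLI replicate 4 and -0.06 in HLI replicate 5. In Sham replicates 1 to 5 it was 0.05, 0.11, -0.08, 0.22 and 0.19. HLI replicate 3 was thus the lowest library, replicates 2, 4 and 5 of HLI were inside the span of the Sham values, and the groups overlapped. HLI replicate 3 was the lowest of the 10 libraries for 59 of 78 members, where it was the lowest for 26.5% of all genes tested. Sham replicate 4 was the highest for 38 members, against 9.97% of all genes. Members below the lowest Sham library numbered 66 in HLI replicate 3, 39 in HLI replicate 1, 28 in HLI replicate 5, 18 in HLI replicate 2 and 5 in HLI replicate 4. The matching shares of all genes were 34.4%, 27.7%, 20.8%, 17.7% and 19.6%. HLI replicate 4 had 12 members above the highest Sham library, where 17.7% of all genes were. These ranks are of TMM-scaled CPM, which a larger scaling factor lowers. The factor was 1.23 in HLI replicate 3 and 0.91 to 1.08 in the other libraries. In TPM the members summed to 4215 in HLI replicate 3 and 4237 in Sham replicate 3. Some members, such as Mrpl35, were highest in HLI replicate 3 in TPM, and others, such as Mrpl42, were lowest there. In the TMM-scaled counts without HLI replicate 3, the median log2 fold change was -0.12 and 69 of 78 members stayed below 0. In that fit 5 were lower at an unadjusted edgeR p under 0.05, or 6.41%, against 3.46% of all genes. When HLI replicate 4 was left out the count was 28, or 35.9%, against 14.5% of all genes in that fit. Leaving out Sham replicate 3 gave 23 members, or 29.5%, against 7.59% of all genes. Without Sham replicate 2 it was 6, or 7.69%, against 2.86%, and without Sham replicate 5 it was 4, or 5.13%, against 2.74%. Without Sham replicate 4 it was 3, or 3.85%, the same share as the 3.85% of all genes.

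**Figure D2:**
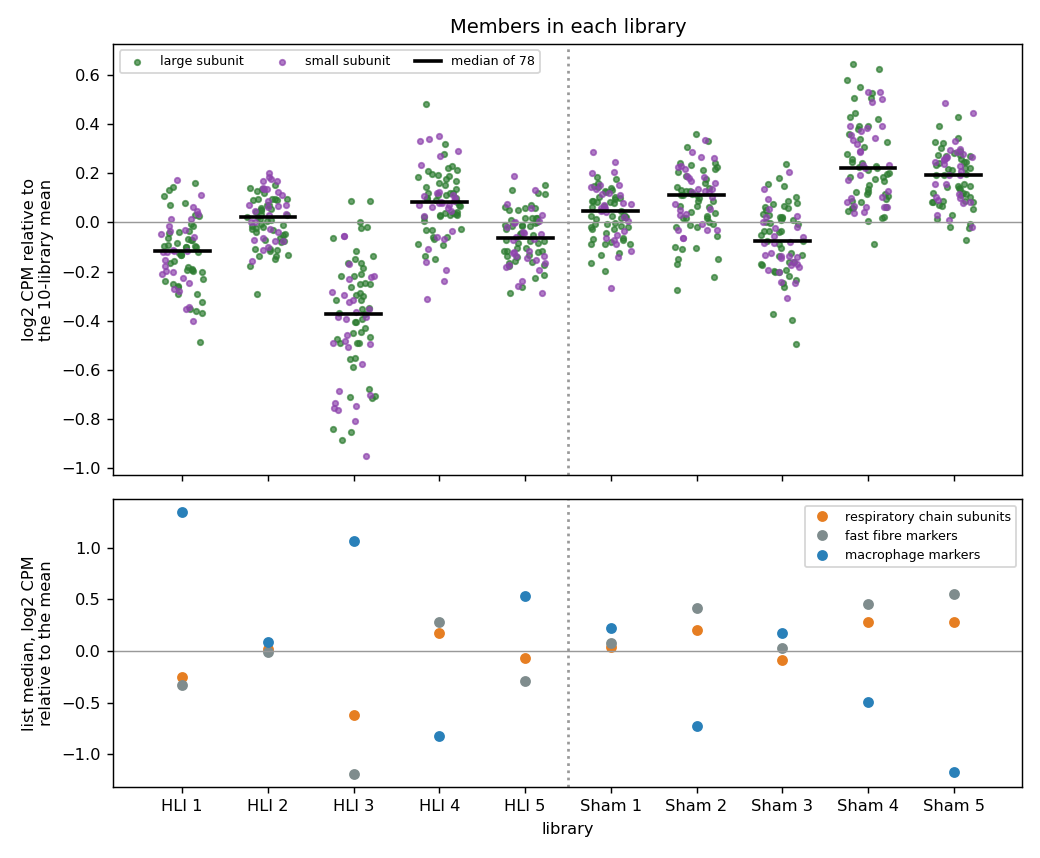
The upper plot gives log2 CPM of each member relative to its mean over the 10 libraries, with a point per gene and a black bar at the median of 78. The lower plot gives the list medians of respiratory chain subunits, fast fibre markers and macrophage markers in the same libraries; HLI replicate 3 is lowest for the members, at -0.37, and for fast fibre markers, at -1.19.

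Markers of muscle fibres and of some other cells also stood at different levels in these libraries. The fast fibre list, with 11 of 12 markers below 0, had a library median of -1.19 in HLI replicate 3 and of -0.33, -0.01, 0.28 and -0.29 in HLI replicates 1, 2, 4 and 5, on the log2 scale relative to the mean of 10 libraries. In Sham replicates 1 to 5 it was 0.08, 0.41, 0.03, 0.46 and 0.55. The slow fibre list, with 7 of 8 markers below 0, had library medians of -0.66, 0.27, -1.32, 0.48 and -0.13 in HLI and of -0.06, 0.46, 0.16, 0.54 and 0.53 in Sham. Both fibre lists were lowest in HLI replicate 3. The 13 macrophage markers, all above 0 and none at 0 counts in any library, summed to between 897 and 3678 CPM in HLI and between 685 and 1735 CPM in Sham. The 8 fibroblast markers, 7 above 0, summed to between 5611 and 19968 CPM in HLI and between 8088 and 11135 CPM in Sham. The 14 cell cycle genes, 13 above 0, summed to between 127 and 373 CPM in HLI and between 81.04 and 142 CPM in Sham. The 10 endothelial markers, 7 above 0, summed to between 1183 and 1855 CPM in HLI and between 1081 and 1825 CPM in Sham, nearly the same range, and their library median was 0.05 in HLI replicate 3. The part of these cell types in the members' values was not tested, and in bulk tissue fewer fibres and less RNA per fibre cannot be told apart. The 27 nuclear respiratory chain and ATP synthase subunits had a median log2 fold change of -0.28 with all 27 below 0. Most of them assemble with products of mitochondrial translation, but Sdha, Sdhb, Sdhc and Sdhd do not. The 78 cytosolic ribosomal protein genes had a median of -0.03 with 43 below 0, so the 2 kinds of ribosomal protein genes stood at different medians, a difference that was not tested.

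The 6 members with the smallest p among those with lower values were Mrpl16, Mrps18b, Mrpl11, Mrpl35, Mrps15 and Mrpl36. Mrpl16, a large subunit protein with a bacterial homologue, had 34.1, 30.8, 19.3, 28.7 and 26.4 CPM in HLI replicates 1 to 5, against 32.2, 39.2, 33.0, 39.2 and 40.2 CPM in Sham. Every HLI library but replicate 1 lay below the Sham range. The log2 fold change was -0.40 (SE 0.15, edgeR unadjusted p = 0.018, adjusted p = 0.29). Mrps15, a small subunit protein with a bacterial homologue, had 40.4, 47.8, 27.1, 46.7 and 40.4 CPM in HLI, against 55.8, 48.3, 44.1, 66.1 and 52.3 CPM in Sham. HLI replicates 1, 3 and 5 lay below the Sham range and the other two within it, with a log2 fold change of -0.40 (SE 0.16).

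Mrpl11 belongs to the base of the stalk on the large subunit where translation factors dock. It had 38.3, 40.2, 27.9, 41.8 and 36.2 CPM in HLI, against 44.8, 44.7, 39.5, 51.8 and 49.3 CPM in Sham. HLI replicates 1, 3 and 5 were below the Sham range, and the log2 fold change was -0.32 (SE 0.12). The other stalk genes had log2 fold changes of smaller size, -0.18 for Mrpl12 and -0.05 for Mrpl10. Mrpl12, whose product forms the mobile stalk and also binds mitochondrial RNA polymerase in human cells, had 87.4 ± 12.9 CPM in HLI and 98.7 ± 8.25 CPM in Sham (SD, n = 5 each). Mrpl10, which anchors the stalk, had 30.7 ± 4.38 CPM in HLI and 31.9 ± 0.440 CPM in Sham (SD, n = 5 each). Its 5 Sham libraries lay within 31.5 to 32.6 CPM, whereas HLI ran from 24.1 CPM in replicate 3 to 35.5 CPM in replicate 4.

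Mrpl35 and Mrpl36 encode small large-subunit proteins with bacterial homologues. Mrpl35 had 28.7, 27.9, 22.2, 34.5 and 26.4 CPM in HLI, against 32.6, 33.2, 32.4, 35.8 and 36.7 CPM in Sham, so 4 HLI libraries lay below the Sham range and replicate 4 within it. Its log2 fold change was -0.29 (SE 0.12), but on unscaled TPM it was 0.0055. Mrpl36 had 25.2, 24.99, 18.4, 26.6 and 22.99 CPM in HLI, against 27.7, 29.5, 26.1, 31.5 and 28.8 CPM in Sham. Here too HLI replicate 4 was the highest HLI library and the only one inside the Sham range, and the log2 fold change was -0.28 (SE 0.11). In the annotation used here an exon of Mrpl36 overlaps one of Ndufs6, a respiratory complex I gene on the opposite strand, and counting may not separate their reads.

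Mrps12 was the only member whose groups did not overlap in CPM. It was 1 of 78 or 1.28%, against 0.873% of all genes tested with every HLI library lower. Its product lies at the decoding centre of the small subunit. It had 11.6, 13.4, 9.54, 14.0 and 13.4 CPM in HLI, against 14.0, 15.1, 15.4, 14.2 and 14.2 CPM in Sham, where the highest HLI and lowest Sham libraries were nearly equal. The log2 fold change was -0.24 (SE 0.12, edgeR unadjusted p = 0.0755, adjusted p = 0.32). In TPM the HLI libraries of Mrps12, at 30.9 to 35.5, lay within the Sham range of 30.0 to 37.5. In the other direction 0 members were free of overlap in CPM, against 0.776% of all genes. In TPM, however, Mrpl46 was free of overlap in that direction. The share of all genes free of overlap in TPM was not counted, so this has no background beside it. On unscaled TPM the median log2 fold change of all genes was itself above 0, at 0.19. The lowest HLI library of Mrpl46 stood at 26.6 TPM and its highest Sham library at 25.9 TPM.

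**Figure D3:**
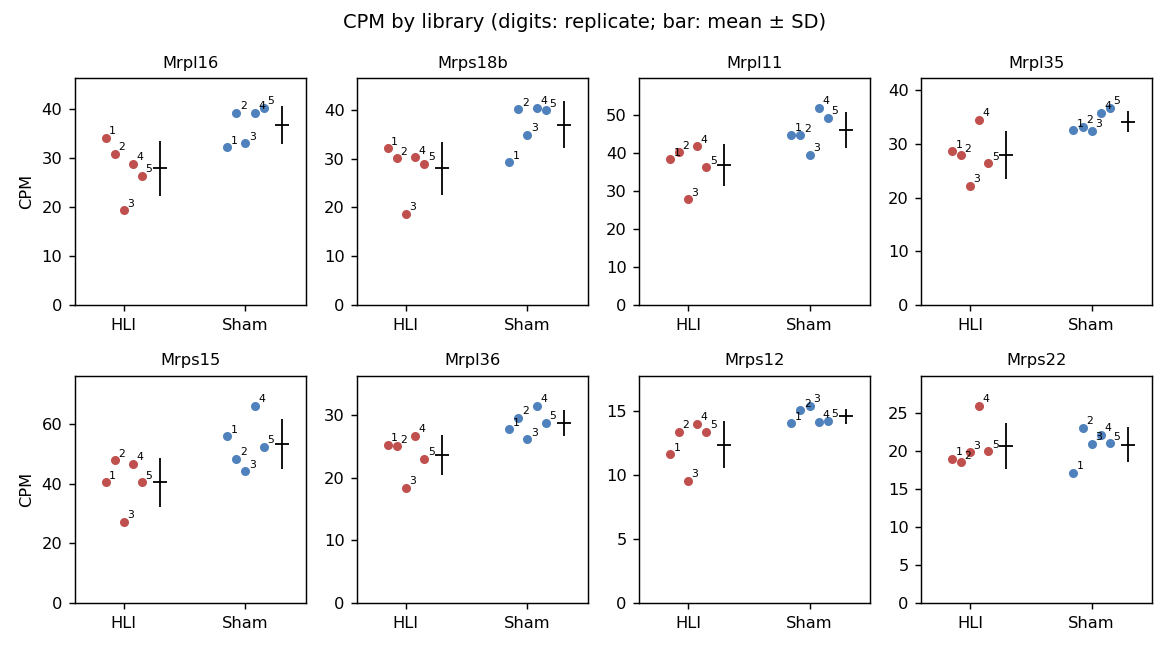
CPM of 8 members in each library, HLI left and Sham right, with digits for replicate numbers and bars for mean ± SD over 5 libraries. HLI replicate 3 is the lowest HLI library in all of them but Mrps22, where HLI replicate 4 stands at 25.9 CPM above the other HLI libraries.

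Mrps18a, Mrps18b and Mrps18c are related to one bacterial small subunit protein. Ribosome nomenclature treats only Mrps18c as its direct counterpart, so the count above placed Mrps18a and Mrps18b among the 32 genes without a bacterial homologue. Mrps18b had 32.1, 30.1, 18.6, 30.3 and 28.9 CPM in HLI, against 29.3, 40.1, 34.9, 40.3 and 39.9 CPM in Sham. Sham replicate 1 lay among the HLI libraries and the other Sham libraries above them, with a log2 fold change of -0.40 (SE 0.15). Mrps18a, assigned to the large subunit, had 33.3, 37.5, 21.7, 40.0 and 37.1 CPM in HLI, against 41.4, 45.8, 36.6, 49.9 and 46.9 CPM in Sham, with a log2 fold change of -0.38 (SE 0.16). Only HLI replicates 1 and 3 lay below the Sham range. Mrps18c had 16.9 ± 2.96 CPM in HLI and 20.2 ± 3.78 CPM in Sham (SD, n = 5 each), a log2 fold change of -0.25 (SE 0.16). The 3 paralogues thus had the same sign, with values no further apart than their standard errors.

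At the other end, 9 of 78 members had a log2 fold change within 0.05 of 0. The 4 members with a value above 0 were Mrpl1, Mrpl50, Mrpl43 and Mrpl40. Mrpl1, a protein of the mobile arm through which tRNA leaves the bacterial ribosome, had 21.9, 30.2, 24.9, 39.6 and 29.6 CPM in HLI, against 26.9, 26.4, 28.5, 30.5 and 27.9 CPM in Sham. Its HLI libraries lay on both sides of the narrow Sham range, and without HLI replicate 4 its log2 fold change was -0.09. Mrpl50 had 30.6 ± 4.08 CPM in HLI and 30.2 ± 4.01 CPM in Sham (SD, n = 5 each). The log2 fold change of Mrpl43 was 0.0023 (SE 0.10) and turned to -0.015 with DESeq2's size factors. That of Mrpl40 was 0.0018 (SE 0.11), and -0.014 with those factors. Mrps22, a small subunit protein without a bacterial homologue, had 19.0, 18.5, 19.8, 25.9 and 19.9 CPM in HLI, against 17.1, 23.1, 20.9, 22.1 and 21.01 CPM in Sham. Mrpl27, a protein with a bacterial homologue close to the site of peptide bond formation, had 17.3 ± 0.820 CPM in HLI and 17.8 ± 0.745 CPM in Sham (SD, n = 5 each).

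The remaining members chosen for their roles lay between these ends. Mrpl44, with a fold like that of ribonuclease III, had 25.4 ± 4.34 CPM in HLI and 30.0 ± 2.58 CPM in Sham, a log2 fold change of -0.24 (SE 0.13). Mrpl45, which helps to hold the ribosome at the inner membrane near the exit tunnel, had 44.7 ± 7.10 CPM in HLI and 49.9 ± 2.83 CPM in Sham. Mrpl58, a peptidyl-tRNA hydrolase built into the large subunit, had 21.7 ± 2.56 CPM in HLI and 23.7 ± 2.60 CPM in Sham. Mrps30 had 34.3 ± 4.37 CPM in HLI and 38.3 ± 3.65 CPM in Sham. Mrps36, whose product is also described as a subunit of the 2-oxoglutarate dehydrogenase complex, had 33.6 ± 7.59 CPM in HLI and 41.6 ± 7.15 CPM in Sham, with a log2 fold change of -0.31 (SE 0.17). These are means ± SD with n = 5 each, and none of the edgeR adjusted p-values was under 0.32. On unscaled TPM the log2 fold changes of Mrpl45, Mrpl58, Mrps30, Mrps22, Mrpl27, Mrpl12 and Mrpl10 were above 0, between 0.01 and 0.18, against a median of all genes of 0.19.

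Levels per length spanned 60.8-fold, from Mrps26 to Mrpl42, in mean TPM over the 10 libraries, and 72 of 78 members lay above the median of all genes tested. Mrpl42 had 368, 448, 300, 385 and 427 TPM in HLI, against 459, 432, 396, 501 and 450 TPM in Sham. HLI replicates 1, 3 and 4 were below the Sham range; its log2 fold change in the TMM-scaled counts was -0.40 (SE 0.17, edgeR unadjusted p = 0.041, adjusted p = 0.29). Mrpl30 had 224 ± 36.8 TPM in HLI and 256 ± 37.7 TPM in Sham, Mrps21 had 172 ± 32.01 TPM in HLI and 200 ± 30 TPM in Sham, and Mrpl33 had 135 ± 9.38 TPM in HLI and 134 ± 13.9 TPM in Sham (SD, n = 5 each). The lowest 4 members were Mrpl57, Mrpl47, Mrpl19 and Mrps26, with means over 10 libraries of 9.25, 8.99, 7.79 and 6.85 TPM. In these 4 a TPM corresponded to 1.60, 1.86, 2.74 and 2.36 CPM, against 0.37 CPM in Mrpl42, so the order of levels rests on the gene lengths the authors used, which go unstated here. The 78 members together took 0.45% ± 0.02 of all TPM in HLI and 0.47% ± 0.03 in Sham (SD, n = 5 each), and the groups overlapped.

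**Figure D4:**
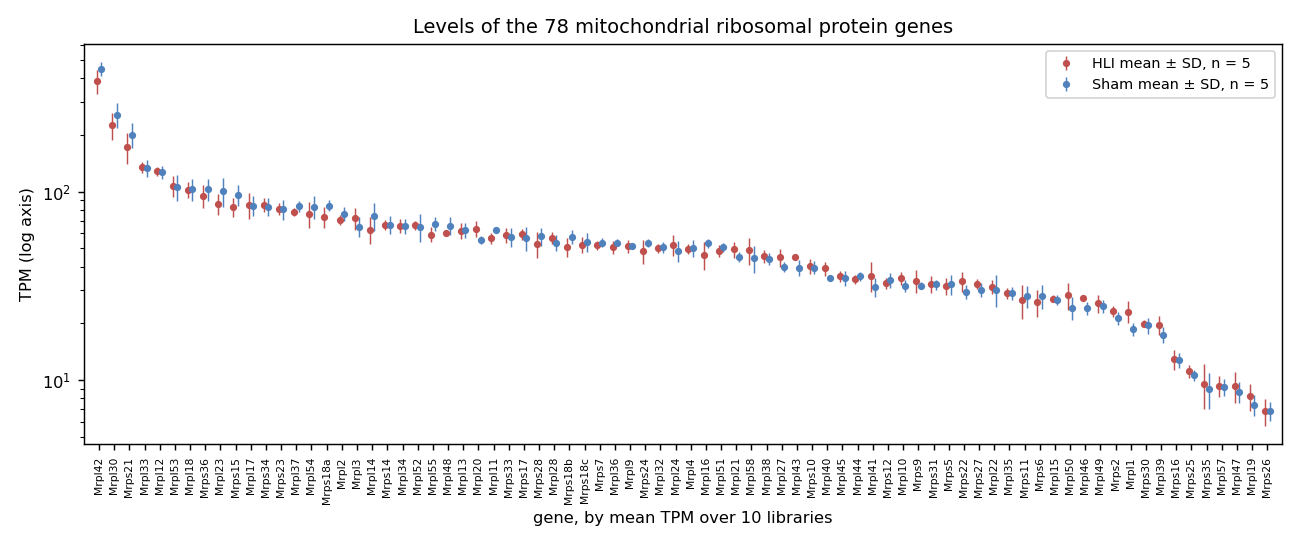
Mean TPM ± SD of each of the 78 members in HLI and in Sham (n = 5 each) on a log axis, ordered by the mean over 10 libraries. Mrpl42, Mrpl30 and Mrps21 stand above the rest, and Mrps26 is lowest at 6.85 TPM.

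Most genes that build or serve the mitochondrial ribosome under other names also had log2 fold changes below 0. All 5 ribosomal subunit genes with other symbols were below 0 in the TMM-scaled counts, with a median of -0.19. In mean TPM, however, Dap3, Ptcd3 and Gadd45gip1 were higher in HLI, and Aurkaip1 and Chchd1 were lower. Aurkaip1, a small subunit protein, had 39.8 ± 4.60 CPM in HLI and 46.8 ± 3.72 CPM in Sham, Dap3, a GTP-binding protein of the small subunit, had 39.6 ± 3.21 CPM in HLI and 45.1 ± 3.08 CPM in Sham, and Chchd1, also of the small subunit, had 44.2 ± 10.5 CPM in HLI and 56.3 ± 11.5 CPM in Sham (SD, n = 5 each). Of 27 assembly factors and rRNA-modifying enzymes 23 were below 0, with a median of -0.21, and 6, or 22.2%, were lower at an unadjusted edgeR p under 0.05. Of all genes tested 46.2% were below 0 and 6.15% were lower at that limit. The 4 assembly genes above 0 were Mterf4, Gtpbp10, Tfb1m and Mettl15, with log2 fold changes of 0.18 (SE 0.20), 0.16 (SE 0.23), 0.04 (SE 0.14) and 0.03 (SE 0.20). In mean TPM others of that list, such as Mterf3 and Noa1, were also higher in HLI, and some, such as Eral1 and Malsu1, were lower. Ybey, an endoribonuclease needed for the small subunit, had 4.63, 4.44, 4.91, 6.85 and 5.11 CPM in HLI, against 8.02, 7.65, 6.32, 8.01 and 8.28 CPM in Sham. Only HLI replicate 4 reached the Sham range, and the log2 fold change was -0.56 (SE 0.16, edgeR unadjusted p = 0.0042, adjusted p = 0.29). Fastkd2, which binds the large subunit rRNA, had 23.8, 24.4, 19.2, 27.6 and 25.8 CPM in HLI, against 27.9, 32.1, 31.1, 30.4 and 31.1 CPM in Sham. Its groups did not overlap in CPM, though the highest HLI and lowest Sham libraries were nearly equal. It was 1 of 27 assembly genes or 3.70%, against 0.873% of all genes tested. In TPM the groups overlapped, at 10.0 to 11.2 in HLI and 10.5 to 12.4 in Sham. The log2 fold change of Fastkd2 was -0.34 (SE 0.11, edgeR unadjusted p = 0.0086, adjusted p = 0.29). Lonp1, a protease of the matrix, had 63.9 ± 9.26 CPM in HLI and 80.2 ± 7.13 CPM in Sham.

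Of 16 translation factors and helpers 13 were below 0, with a median of -0.14, and 2, or 12.5%, were lower at an unadjusted edgeR p under 0.05, against the same 46.2% and 6.15% of all genes. The 3 above 0 in these TMM-scaled counts were Mtif2 at 0.24 (SE 0.22), Guf1 at 0.18 (SE 0.16) and Mtrfr at 0.08 (SE 0.14). In mean TPM some of the others, such as Tufm, Tsfm and Oxa1l, were higher in HLI, and some, such as Gfm1 and Gfm2, were lower. Gfm2, a factor that splits the ribosome after termination, had 57.3 ± 13.9 CPM in HLI and 73.1 ± 6.21 CPM in Sham, and Mtrf1, of the release factor family, had 9.05 ± 2.22 CPM in HLI and 11.6 ± 2.36 CPM in Sham (SD, n = 5 each). Slirp, which stabilises mitochondrial mRNAs, had 10.7 ± 1.19 CPM in HLI and 15.1 ± 3.97 CPM in Sham, a log2 fold change of -0.49 (SE 0.17) that was 0.18 on unscaled TPM. Its count per TPM, both per 1000000, was 0.917 in HLI and 1.29 in Sham, so the 2 deposited units give opposite signs for this gene. Adjusted over all genes, 0 genes of these 3 lists were called by edgeR.

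The members are spread over 17 of the mouse chromosomes, with at most 11 on 1 chromosome, by the GENCODE M21 annotation, which matched all 78 by gene identifier. An exon of another annotated gene overlaps 33 members, and in 28 the other gene lies on the opposite strand. The median log2 fold change was -0.18 for these 33 and -0.18 for the 45 without an overlap, of which 42 were below 0. Mrpl46 and Mrps11, a large and a small subunit gene, overlap each other on opposite strands. A further coding gene starts within 1000 bases upstream on the opposite strand of 18 members, or 23.1%, against 9.54% of 13352 coding genes tested. Among these, Mrps12 is paired with Sars2, which encodes the mitochondrial seryl-tRNA synthetase.

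Promoter windows of 300 bases, 250 before and 50 after the annotated start, were given by RefSeq for 69 of the 78 members, 75 windows in all (GRCm38.p6). Motifs known from genes of mitochondrial proteins were searched on both strands. They were an ETS motif, CCGGAAG, bound by factors such as GABP, an NRF1 motif, GCGCA and GCGC with any base between them, and a YY1 motif, AANATGGCG, and in 0 windows did matches of these overlap each other. The ETS motif was in 34.7% of members' windows, against 16.1% of the windows of all genes tested and 8.86% of all windows listed. The NRF1 motif was in 17.3% of members' windows, against 9.12% and 4.60%, and the YY1 motif in 14.7%, against 4.54% and 2.38%. In windows of cytosolic ribosomal protein genes the shares were 32.9% for ETS, 7.14% for NRF1 and 14.3% for YY1. Of other elements, CCAAT was in 40% of members' windows and in 37.0% of those of all genes tested, the E-box CACGTG in 9.33% and 9.60%, and TATAAA in 6.67% and 7.47%. Members with and without a match had similar median log2 fold changes, -0.19 and -0.18 for ETS and -0.19 and -0.18 for NRF1, whereas the 11 genes with a YY1 match had -0.28 and the 58 without one -0.18. These are descriptions of letters in a window, with no test.

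**Figure D5:**
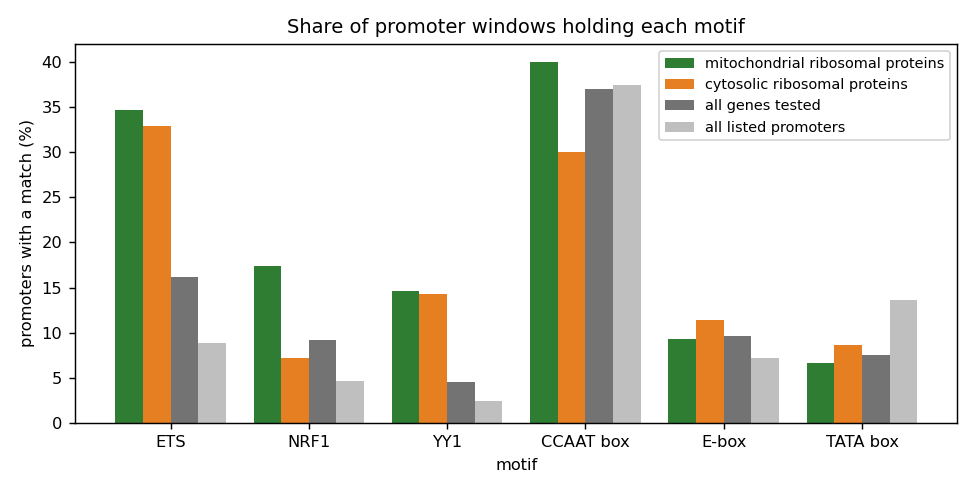
Share of promoter windows, in percent, that hold each motif on either strand, for mitochondrial ribosomal protein genes, cytosolic ribosomal protein genes, all genes tested and all listed promoters. The members' bars for ETS, NRF1 and YY1, at 34.7%, 17.3% and 14.7%, are above those of all genes tested.

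The following stretches of the RefSeq windows lie upstream of the annotated start, 5′ to 3′ on the strand of the gene, with the matching letters in capitals. The ETS stretches are shown because the motif occurs in members with low and with near-zero log2 fold changes. The NRF1 stretches are those of 3 of the 5 members highest in TPM, and the YY1 stretch is that of a member with one of the 6 smallest p-values. Coordinates are of GRCm38.p6.
Mrps18a (ETS, chr17:46110958-46111003, plus strand): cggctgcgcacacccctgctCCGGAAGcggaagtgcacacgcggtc
Mrps22 (ETS, chr9:98601680-98601710, minus strand): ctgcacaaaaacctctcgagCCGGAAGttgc
Mrpl43 (ETS, chr19:45006472-45006518, minus strand): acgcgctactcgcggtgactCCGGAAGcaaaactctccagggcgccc
Mrpl30 (NRF1, chr1:37890374-37890423, plus strand): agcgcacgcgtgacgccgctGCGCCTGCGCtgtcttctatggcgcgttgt
Mrps21 (NRF1, chr3:95871576-95871625, minus strand): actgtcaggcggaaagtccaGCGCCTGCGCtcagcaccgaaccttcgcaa
Mrpl12 (NRF1, chr11:120484536-120484585, plus strand): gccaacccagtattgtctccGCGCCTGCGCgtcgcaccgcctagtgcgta
Mrpl36 (YY1, chr13:73330958-73331006, plus strand): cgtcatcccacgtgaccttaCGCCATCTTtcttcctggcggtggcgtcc
Of the genes with the ETS match, Mrps18a stood at a log2 fold change of -0.38, Mrps22 at -0.01 and Mrpl43 at 0.0023. Of those with the NRF1 match, Mrpl30 stood at -0.36 (SE 0.17), Mrps21 at -0.40 (SE 0.21) and Mrpl12 at -0.18 (SE 0.12). The match in Mrpl36, at -0.28, and those of NRF1 shown here read as the motif on the other strand.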

How the data were processed

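The authors deposited one table that pairs Ensembl identifiers and symbols with 2 columns per sample, an estimated count and TPM, as named per the file headers. The estimated counts as deposited carry no normalization, and 93.4% are whole. TPM as deposited sum to 1000000 in each sample. HISAT2 2.0, Bowtie 0.12.2 and mm8 appear in the submitters' processing notes, without their roles. The counting tool, the annotation and whether strand was used go unstated in the sources used here.

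Estimated counts were rounded and tested with edgeR 4.0.16 in R 4.3.3: TMM scaling, filterByExpr (count minimum 10, total minimum 15), quasi-likelihood test of HLI over Sham with no covariate, and Benjamini-Hochberg adjustment over 13404 genes. Alternatives were DESeq2 1.42.0, its size factors in edgeR, limma 3.58.1 on log2(TPM + 1), as deposited and scaled by median of ratios, and on log2(TPM + 0.1), no filter, a replicate block, and each library left out. Log2 CPM relative to the mean used a prior count of 2. The SE of a log2 fold change was its size divided by the square root of edgeR's F statistic.

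Named with values were any member called and the 6 of each direction with the smallest p (4 lay above 0). The 4 highest and 4 lowest in TPM and 14 chosen for their roles were also named. So were the 3 genes of each pathway list with the smallest p, all of them lower in HLI in the TMM-scaled counts. Mrpl14, Mrpl46, the pathway genes above 0 and those compared only in mean TPM were named after their values were seen. The members, lists and motifs were chosen with earlier results of these data known.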

Additional observations from a re-analysis of the deposited data

Results flagged for a closer look

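Of 86 groups of 5 values examined, those of the named genes and of the members' medians and sums, 5 held a library set apart from the other 4 by more than 0.71 of the group's range, and chance gives about 1 in 20. Mrps18b stood at 18.6 CPM in HLI replicate 3, below the other HLI libraries at 28.9 to 32.1 CPM. Mrps22 stood at 25.9 CPM in HLI replicate 4, above 18.5 to 19.9 CPM in the others, and Ybey at 6.85 CPM in the same library, above 4.44 to 5.11 CPM. Mrpl27 stood at 18.8 CPM in HLI replicate 2, above 16.8 to 17.2 CPM. Mrpl12 stood at 84.2 CPM in Sham replicate 3, below 100 to 105 CPM in the other Sham libraries.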

How the results depend on the processing

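No member was called by edgeR, DESeq2 or limma under any alternative run, and the lowest adjusted p of a named gene in any of them was 0.081. The members' median log2 fold change was -0.23 to -0.12 with each library left out (large subunit -0.23 to -0.12, small subunit -0.24 to -0.15), with 69 to 77 of 78 below 0 and 3 to 28 lower at an unadjusted p under 0.05. On unscaled TPM, limma with a pseudocount of 1 or 0.1 gave 34 members below 0, 0 lower and 1 higher at an unadjusted p under 0.05. Of the 13404 genes, 267 were lower and 2271 higher at that limit with a pseudocount of 1, and 268 and 2294 with 0.1. The medians were then 0.012 for both pseudocounts over all members, 0.018 for both over the large subunit, and -0.0042 for both over the small subunit. Relative to the median of all genes, 0.19 and 0.21, the members stood at -0.17 and -0.20. After scaling by median of ratios their median was -0.20. The cause of these differences was not tested.

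Of 39 named genes, 21 kept their sign in every alternative. With pseudocounts of 1 and 0.1 on unscaled TPM, the log2 fold change was 0.0055 and 0.0057 for Mrpl35, 0.018 and 0.018 for Mrpl33, 0.017 and 0.018 for Mrpl57, 0.087 and 0.095 for Mrpl47, 0.13 and 0.14 for Mrpl19, and 0.13 and 0.13 for Mrpl10. It was 0.015 and 0.015 for Mrpl12, 0.16 and 0.17 for Mrpl27, 0.033 and 0.034 for Mrpl45, 0.13 and 0.14 for Mrpl58, 0.18 and 0.18 for Mrps22, 0.036 and 0.037 for Mrps30, 0.064 and 0.065 for Dap3, and 0.18 and 0.20 for Slirp. Mrpl43 stood at -0.012 with no filter, -0.015 with DESeq2's size factors in edgeR, -0.015 with DESeq2 and -0.014 on scaled TPM. Mrpl40 stood at -0.010, -0.014, -0.014 and -0.051 in the same order. With each library left out, values ran from -0.088 to 0.14 for Mrpl1, -0.12 to 0.022 for Mrpl10, -0.098 to 0.010 for Mrpl19, -0.060 to 0.039 for Mrpl40, -0.062 to 0.054 for Mrpl43, -0.20 to 0.0050 for Mrpl47, -0.046 to 0.094 for Mrpl50 and -0.12 to 0.024 for Mrps22. Without Mrps36 the members' median stayed at -0.18.

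The replicate block gave 25 members lower at an unadjusted p under 0.05, where 9.50% of all genes were, and put Mrpl43 at -0.00094 and Mrpl40 at -0.00097. The numbers mark no stated pairing. Deviations of same-numbered samples correlated at 0.0001, 0.184, 0.276, 0.187 and -0.009, and no sample correlated best with its own number. Every member had at least 2209 counts over the 10 libraries. The biological coefficient of variation, from the dispersion common to all genes tested and not from the members alone, was 0.252.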
